A study of Mus musculus with 6 samples.

Results

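Aminoacyl-tRNA synthetases attach each amino acid to its transfer RNA (tRNA), and the genes of 36 of them were followed in fetal mouse ovaries. They were taken from a list of symbols that holds 20 cytosolic enzymes and 16 mitochondrial enzymes, the latter with names ending in 2, and the list is defined without a measured value, although it was chosen with earlier results of these data known. Each symbol was matched to an Ensembl identifier of the deposited count table through GENCODE M21. All 36 were found among its 48709 genes, and all 36 were among the 20167 genes that passed the expression filter and were tested.

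Without a charged tRNA, the ribosome cannot read the matching codon, so every cell needs a full set of these enzymes. Mitochondria use a set of their own for the proteins encoded by mitochondrial DNA, although those enzymes are encoded in the nucleus. Several cytosolic synthetases are held in a multi-synthetase complex by scaffold proteins. When uncharged tRNA accumulates, the kinase GCN2 raises translation of the transcription factor ATF4, whose targets include amino acid transporters, biosynthetic enzymes and several cytosolic synthetases.

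RNA came from ovaries of 13.5 dpc (days post coitum) embryos of wild-type CD1 mice, an outbred strain. Dams received acetaminophen (APAP, 30 mg/kg per day) and ibuprofen (IBU, 15 mg/kg per day) by gavage from 10.5 to 13.5 dpc, or ethanol alone as the control, so both groups shared the solvent and the handling. Each group was 3 libraries, and each library was made from a pool of embryonic gonads from a pair of dams, so an embryo or a litter cannot be followed within a library. In the sample titles the exposed libraries carry the name of IBU only, but their exposure label has both drugs, so they are called APAP+IBU here.

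Total counts per library ran from 37811968 to 48954631. Summed markers of germ cells were 1270 to 1470 CPM (each count as a share of its library, scaled to a common size after TMM normalisation) and those of pre-granulosa cells 749 to 1110 CPM, with none of these 20 markers at 0 in any library. Other markers set some libraries apart. The 20 liver markers together reached 2190 CPM in the control replicate 3 library and 3560 CPM in the APAP+IBU replicate 3 library, whereas the remaining 4 libraries held 214 to 601 CPM. The 12 erythroid markers summed to 5900, 13800 and 9370 CPM in control replicates 1, 2 and 3 and to 2510, 4480 and 8830 CPM in APAP+IBU replicates 1, 2 and 3. The 15 spermatid markers summed to 54.5 to 170 CPM in controls and 8.3 to 13.5 CPM in APAP+IBU, and 13 of them had an unadjusted p under 0.05, all lower. Libraries also differed in how their counts followed base composition, as described with the fold changes. Results are therefore given for all 6 libraries and again for replicates 1 and 2 of each group. In bulk RNA, fewer cells of a type and less RNA per cell cannot be told apart.

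Per kilobase of exon, cytosolic synthetase transcripts were mostly more abundant than mitochondrial ones. Levels on this scale are CPM divided by the exon length in kilobases (RPKM) averaged over the 6 libraries. Glycyl-tRNA synthetase, Gars, had the highest level of the 36, at 57.7 RPKM with a range of 46.8 to 68.7 over libraries. Lysyl-tRNA synthetase, Kars, followed at 47 RPKM with a range of 39.9 to 57.7, which overlapped that of Gars and that of Farsb (38.9 to 51.9). The lowest cytosolic levels were those of cysteinyl-tRNA synthetase, Cars, at 10.2 RPKM (9.18 to 11.8) and tyrosyl-tRNA synthetase, Yars, at 12.5 RPKM (10.6 to 14.3), and these ranges also overlapped. Gars and Kars each encode both the cytosolic and the mitochondrial form of their enzyme, so their counts cover both compartments.

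Among the mitochondrial enzymes, leucyl-tRNA synthetase 2, Lars2, had 23.1 RPKM (15.9 to 29.4) and isoleucyl-tRNA synthetase 2, Iars2, had 20.1 RPKM (19.2 to 22.2). Tryptophanyl-tRNA synthetase 2, Wars2, had 3.66 RPKM (2.84 to 4.2) and methionyl-tRNA synthetase 2, Mars2, the lowest level of the 36, had 1.08 RPKM (0.743 to 1.35). The ranges of Wars2 and Mars2 did not overlap each other, while those of Lars2 and Iars2 did. Even for Mars2 each library held 320 to 771 counts, so no member was near the limit of detection.

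Because ATF4 targets include synthetase genes, promoters were searched for the core of the element that ATF4 binds with C/EBP partners, TGATGNAA, on both strands. The windows were RefSeq promoters on GRCm38.p6, from 250 bases before to 50 bases after a gene's start. They were at hand for 27 of the 36 members. The 8 bases occurred in 5 of 13 cytosolic windows (38.5%), in 0 of 14 mitochondrial genes and in 9 of 30 genes of the amino acid response list described further on (30%). Over all RefSeq genes with a window the share was 4.51%, and over all windows it was 3.97%. A match from each of the 5 cytosolic genes is shown first, with those of Asns, Chac1 and Trib3, which are textbook ATF4 targets. Each line is a stretch of 30 bases, 5′ to 3′ along the gene's strand, with the match in capitals.
Aars (chr8:111033840-111033869, plus strand): agcgggtcactTTTCATCAgagcgctctga
Gars (chr6:55037960-55037989, plus strand): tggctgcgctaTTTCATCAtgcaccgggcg
Iars (chr13:49682126-49682155, plus strand): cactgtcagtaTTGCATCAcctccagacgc
Tars (chr15:11399655-11399684, minus strand): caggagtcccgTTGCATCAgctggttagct
Yars (chr4:129189895-129189924, plus strand): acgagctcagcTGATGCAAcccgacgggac
Asns (chr6:7693214-7693243, minus strand): tcccagccacaTGATGAAActtcccgcacg
Chac1 (chr2:119351038-119351067, plus strand): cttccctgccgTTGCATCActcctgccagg
Trib3 (chr2:152344028-152344057, minus strand): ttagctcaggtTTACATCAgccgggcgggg

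Of the 5 cytosolic genes, 1 stretch is shown for each, Aars being the alanyl-tRNA synthetase gene. The Gars stretch lay before every annotated exon of GENCODE M21. The Aars stretch, the Iars stretch and the Yars stretch lay wholly in annotated exons of their own gene, and 11 bases of the Tars stretch did. The letters describe the sequence and were not read as bound sites.

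After exposure, the cytosolic synthetases as a group had lower mean levels, and no single member passed the adjusted test over all 6 libraries. On the log2 scale the fold change, APAP+IBU over control, was below 0 for all 20 cytosolic members, against 50.6% of all tested genes. Its median was -0.16 with a range of -0.32 to -0.04, and the median of all tested genes was 0. Leaving out 1 library gave medians from -0.11, without APAP+IBU replicate 1, to -0.25, without APAP+IBU replicate 3. By edgeR's quasi-likelihood test, adjusted over all 20167 genes by the Benjamini-Hochberg method, 0 members passed an adjusted p of 0.05 (background 0% of tested genes), and the smallest adjusted p of a member was 0.692. At an unadjusted p under 0.05, 2 members, Gars and Rars, had lower levels (background 3.21% of tested genes) and 0 had higher levels (background 3%). Leaving out control replicate 1 or APAP+IBU replicate 2 brought the 2 lower members to 0, leaving out control replicate 2 or APAP+IBU replicate 1 to 1, leaving out control replicate 3 to 9 and leaving out APAP+IBU replicate 3 to 4. Without control replicate 3, 2 members were higher at that limit. The whole table moved too. In either direction, 6294 of 20634 tested genes passed that limit without control replicate 3 and 2386 of 20973 without APAP+IBU replicate 3. Without control replicates 1 and 2 in turn, 674 of 20897 and 701 of 20939 did. Without APAP+IBU replicates 1 and 2 in turn, 642 of 20620 and 580 of 20688 did.

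Summed over the 20 genes, the cytosolic synthetases had 3270, 3100 and 3050 CPM in control replicates 1, 2 and 3. They had 2620, 2780 and 2960 CPM in APAP+IBU replicates 1, 2 and 3. All 3 exposed libraries were below all 3 controls, and APAP+IBU replicate 3 lay closest to them. The means were 3140 ± 113 CPM (SD, n = 3) and 2780 ± 169 CPM (SD, n = 3), a difference of -11.3%. Between replicates 1 and 2 of each group the difference was -15.2%, and between the replicate 3 libraries, those with the most liver RNA, it was -3.19%. The summed liver markers were 281 to 2190 CPM in controls and 214 to 3560 CPM in APAP+IBU, and their part in the result was not tested. The sum of the 15 spermatid markers was likewise lower in all exposed libraries, at 170, 56.5 and 54.5 CPM in controls and 13.5, 8.3 and 11.1 CPM in APAP+IBU. Single markers such as Spaca1 and Tssk6 had overlapping groups. Within APAP+IBU the orders differed, since replicate 1 had the lowest cytosolic sum and the highest spermatid sum. Of these markers 13 had an unadjusted p under 0.05, all lower, and Acrv1 was at 0 in APAP+IBU replicates 1 and 3. Their part was not tested either. No test was made of the sum, since the genes were chosen as a group.

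**Figure D1:**
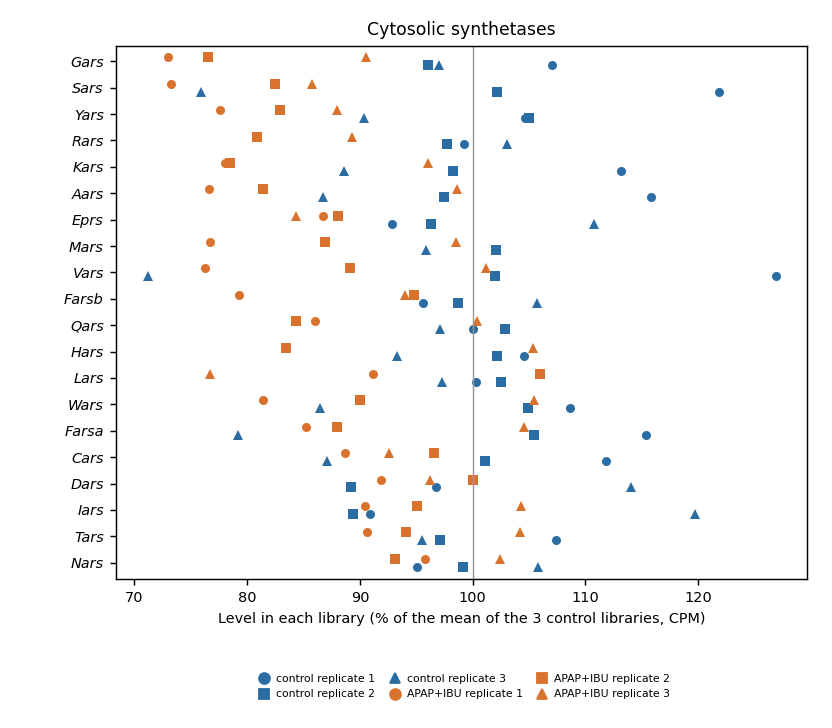
Level of each of the 20 cytosolic synthetases in each of the 6 libraries, as a percentage of the mean of the 3 control libraries (CPM), ordered by log2 fold change; blue symbols are controls, orange symbols APAP+IBU, and the shape gives the replicate. For Gars, Yars, Rars, Eprs and Farsb all orange symbols lie left of all blue symbols, and for most genes the orange triangle, APAP+IBU replicate 3, lies to the right of the other orange symbols.

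For 5 of the 20 cytosolic genes, all 3 APAP+IBU libraries lay below all 3 controls, and for 0 all lay above. Over all tested genes, 5.92% were separated in the lower direction and 4.78% in the higher. The 5 genes were Gars, Rars, Yars, Eprs and Farsb. A two-sided exact permutation test of 3 against 3 libraries gives its smallest possible p, 0.1, for each of them.

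Gars (ENSMUSG00000029777) lies on chromosome 6 of GRCm38 from 55038007 to 55079500. It had 214, 192 and 194 CPM in control replicates 1, 2 and 3 and 146, 153 and 181 CPM in APAP+IBU replicates 1, 2 and 3. The groups did not overlap, and APAP+IBU replicate 3 came closest to the controls. The control mean was 200 ± 12.2 CPM (SD, n = 3), and that after exposure was 160 ± 18.4 CPM (SD, n = 3). The log2 fold change was -0.32 (standard error, SE, 0.13, unadjusted p = 0.0375, adjusted p = 0.692 in edgeR's quasi-likelihood test), the lowest of the cytosolic set.

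Yars (ENSMUSG00000028811, chromosome 4, 129189760 to 129219607) showed the same order of libraries within the exposed group. Its levels were 84.8, 85.1 and 73.2 CPM in controls and 62.9, 67.2 and 71.3 CPM in APAP+IBU. Control replicate 3 and APAP+IBU replicate 3 nearly met. The log2 fold change was -0.27 (SE 0.12, unadjusted p = 0.054, adjusted p = 0.692 in edgeR's test).

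The phenylalanyl enzyme is a tetramer of alpha subunits from Farsa and beta subunits from Farsb. Farsb had 123, 127 and 136 CPM in controls and 102, 122 and 121 CPM in APAP+IBU, so the groups were separated by a narrow gap, and the log2 fold change was -0.17 (SE 0.12, adjusted p = 0.7 in edgeR's test). Farsa had 103, 94.1 and 70.7 CPM in controls and 76.1, 78.5 and 93.3 CPM in APAP+IBU. Its groups overlapped, with control replicate 3 the lowest library and APAP+IBU replicate 3 the highest of its group. Farsb shares 8.13% of its 31-base stretches with Sgpp2 on the opposite strand.

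Seryl-tRNA synthetase, Sars, had 223, 187 and 139 CPM in controls and 134, 151 and 157 CPM in APAP+IBU. The spread among controls was wide, and control replicate 3 lay inside the exposed range. Its log2 fold change, -0.31 (SE 0.18, unadjusted p = 0.127, adjusted p = 0.692 in edgeR's test), was therefore close to that of Gars but with a larger error. Cars, the cytosolic gene with the lowest level per length, had 77.7, 70.2 and 60.5 CPM in controls and 61.6, 67.1 and 64.3 CPM in APAP+IBU, with overlapping groups and a log2 fold change of -0.11 (SE 0.13).

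The other cytosolic genes outside the complex are Aars, Hars, Nars, Tars, Vars and Wars, which charge the tRNAs of alanine, histidine, asparagine, threonine, valine and tryptophan. All had overlapping groups, and their log2 fold changes ran from -0.23 for Aars to -0.04 for Nars. Aars shares 13.8% of its 31-base stretches with Exosc6 on the same strand, so part of its counts may belong to either gene.

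The multi-synthetase complex holds 8 of the 20 cytosolic genes, Dars, Eprs, Iars, Kars, Lars, Mars, Qars and Rars. This split was added after the values had been seen. Their log2 fold changes had a median of -0.17, against -0.15 for the other 12 cytosolic genes. Summed over the 8 genes, the level was 1680, 1650 and 1760 CPM in controls and 1460, 1530 and 1560 CPM in APAP+IBU, so all exposed libraries lay below all controls. The difference was -10.6% over all libraries, -10.3% between replicates 1 and 2 and -11.3% between the replicate 3 libraries. The sum of the 12 other genes was 1590, 1450 and 1290 CPM in controls and 1160, 1250 and 1390 CPM in APAP+IBU, where the groups overlapped. For these 12 genes the difference was -20.6% between replicates 1 and 2 and 7.82% between the replicate 3 libraries, whereas the complex genes had a difference of the same sign in both. The sets also differed in GC content, from 41.2% (Dars) to 53.4% (Mars) in the complex and from 46.3% (Farsb) to 60.9% (Vars) outside it. With the length and GC correction described below, the medians over all 6 libraries were -0.23 for the complex and -0.14 for the others. Whether the 2 sets differ from each other, and the part of GC content in it, was not tested.

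Within the complex, arginyl-tRNA synthetase, Rars (ENSMUSG00000018848, chromosome 11, 35808381 to 35834506), had the lowest log2 fold change. It had 130, 128 and 135 CPM in controls and 106, 106 and 117 CPM in APAP+IBU. The controls lay close together and the groups were clearly apart, with a log2 fold change of -0.26 (SE 0.11, unadjusted p = 0.0458, adjusted p = 0.692 in edgeR's test). Eprs (ENSMUSG00000026615, chromosome 1, 185363044 to 185428360) encodes a single protein that charges both glutamate and proline tRNAs. It had 347, 360 and 414 CPM in controls and 324, 329 and 315 CPM in APAP+IBU. Its groups were also separated, here with APAP+IBU replicate 3 the lowest and control replicate 3 the highest library, and the log2 fold change was -0.21 (SE 0.12, unadjusted p = 0.129, adjusted p = 0.692 in edgeR's test).

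Kars, whose product supplies lysyl-tRNA, had 258, 224 and 202 CPM in controls and 178, 179 and 219 CPM in APAP+IBU. APAP+IBU replicate 3 lay among the controls, and the log2 fold change was -0.25 (SE 0.15, unadjusted p = 0.127, adjusted p = 0.692 in edgeR's test). For the remaining 5 complex genes the log2 fold change ran from -0.2 for the methionyl enzyme Mars to -0.05 for the isoleucyl enzyme Iars, and all 5 had overlapping groups. Iars shares 14.5% of its 31-base stretches with Gm4849, so its counts are uncertain in part. Mars and Ddit3 overlap on opposite strands in 1.1% of the Mars stretches.

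The mitochondrial synthetases showed no such shared direction. The log2 fold change was below 0 for 11 of 16, with a median of -0.06 and a range of -0.4 to 0.38. In 0 of 16 were the groups separated, in either direction, against 5.92% of tested genes lower and 4.78% higher. Their sum was 1020, 935 and 1000 CPM in controls and 918, 869 and 887 CPM in APAP+IBU. All exposed sums thus lay below all control sums, with a difference of -9.66%. Lars2 carried most of it. Without Lars2 the sum was 706, 701 and 678 CPM in controls and 651, 692 and 670 CPM in APAP+IBU, with overlapping groups and a difference of -3.45%.

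**Figure D2:**
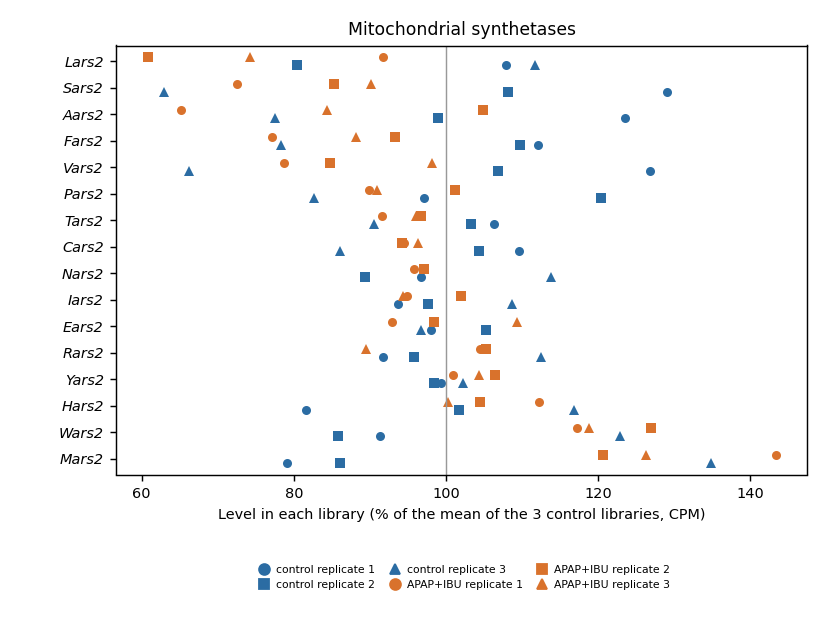
Level of each of the 16 mitochondrial synthetases in each of the 6 libraries, as a percentage of the mean of the 3 control libraries (CPM), ordered by log2 fold change; blue symbols are controls, orange symbols APAP+IBU, and the shape gives the replicate. Blue and orange symbols overlap for all 16 genes, with Lars2 at the top of the order and Wars2 and Mars2 at the bottom.

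Lars2 (ENSMUSG00000035202, chromosome 9, 123366927 to 123462666) had 314, 234 and 325 CPM in controls and 267, 177 and 216 CPM in APAP+IBU. In both groups replicate 2 was the lowest library, and APAP+IBU replicate 1 lay above control replicate 2. Its log2 fold change was -0.4 (SE 0.19, unadjusted p = 0.0697, adjusted p = 0.692 in edgeR's test). Fars2, the single-chain mitochondrial phenylalanyl enzyme, had 50.7, 49.6 and 35.4 CPM in controls and 34.9, 42.2 and 39.9 CPM in APAP+IBU. Control replicate 3 lay inside the exposed range, and the log2 fold change was -0.21 (SE 0.17, adjusted p = 0.713 in edgeR's test).

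At the other end, Mars2 had 8.39, 9.13 and 14.3 CPM in controls and 15.2, 12.8 and 13.4 CPM in APAP+IBU. Control replicate 3 was alone among the controls in reaching the exposed level, and the log2 fold change was 0.38 (SE 0.23, unadjusted p = 0.144, adjusted p = 0.698 in edgeR's test). Wars2 had 18, 16.9 and 24.2 CPM in controls and 23.1, 25 and 23.4 CPM in APAP+IBU, with the same library out of line and a log2 fold change of 0.27 (SE 0.17, adjusted p = 0.698 in edgeR's test). Iars2 had 170, 177 and 197 CPM in controls and 172, 185 and 171 CPM in APAP+IBU, with a log2 fold change of -0.04 (SE 0.12). Iars2 shares 22.4% of its 31-base stretches with Rab3gap2 on the opposite strand, and the strand setting of the counting is not given in the sources used here. The other 11 mitochondrial genes, Aars2, Cars2, Ears2, Hars2, Nars2, Pars2, Rars2, Sars2, Tars2, Vars2 and Yars2, had log2 fold changes from -0.27 for Sars2 to 0.08 for Hars2. Hars2 and the cytosolic Hars overlap on opposite strands, over 6.68% of the Hars stretches.

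**Figure D3:**
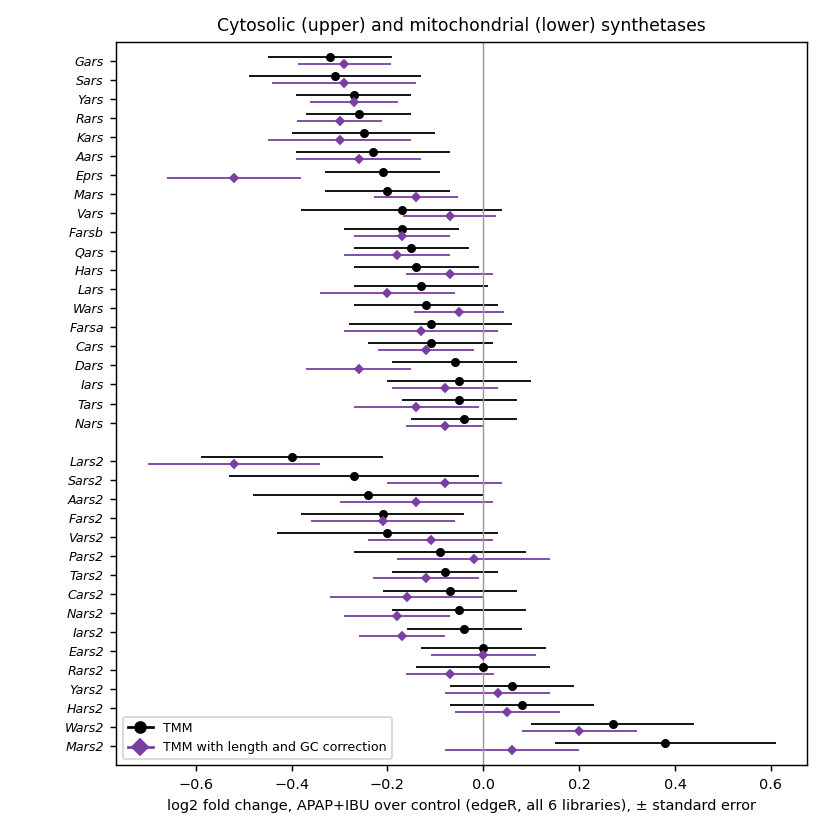
Log2 fold change, APAP+IBU over control, of the 20 cytosolic (upper block) and 16 mitochondrial (lower block) synthetases over all 6 libraries, with 1 standard error on each side; black circles are the TMM fit and purple diamonds the fit corrected for gene length and GC content. All 20 cytosolic values lie left of 0 in both fits, while the mitochondrial values run from -0.4 to 0.38 in the TMM fit.

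Base composition moved with these values. Libraries differed in how the deviation of a gene from its mean level followed the GC content of its transcript. Across the 36 members Pearson's r of that deviation with GC content was 0.79 and 0.67 in the first 2 control pools and -0.76 in control replicate 3. In APAP+IBU it was -0.7 in replicate 1, -0.18 in replicate 2 and 0.11 in replicate 3. These points share libraries and are a description. The log2 fold change over all 6 libraries had an r of -0.55 with GC content across the members and -0.24 across 20103 genes. With replicates 1 and 2 only, these were -0.76 and -0.36. The pair Mars2 (38.8% GC) and Sars2 (60.1% GC) shows the pattern, with log2 fold changes of 0.38 and -0.27.

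**Figure D4:**
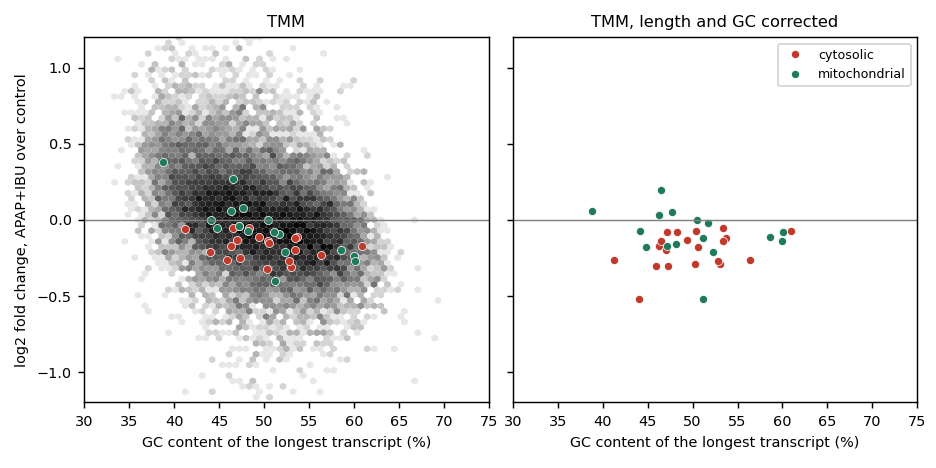
Log2 fold change over all 6 libraries against the GC content of the longest transcript (%), for the TMM fit (left) and for the fit corrected for length and GC content (right); red points are cytosolic and green points mitochondrial synthetases, and grey cells on the left are all tested genes, darker where there are more. The points slope downwards on the left, with r of -0.55, and not on the right, with r of -0.01, where 20 of 20 red points remain below 0.

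A correction of each library for length and GC brought the r across members to -0.01. All 20 cytosolic values were still below 0, against 52.4% of all tested genes, and their median was -0.18. The mitochondrial median was -0.1. Of the 18 members with at least 50% GC, 17 were below 0 before and 18 after the correction, and their median went from -0.2 to -0.13. Of the 18 with less GC, 14 were below 0 both before and after, and their median went from -0.05 to -0.15. After the correction, no member passed the adjusted test (0 of 36, background 0%), and at an unadjusted p under 0.05 the members with lower levels were 5 (background 5.53%) and those with higher levels 0 (background 3.86%). The 5 were Eprs, Rars, Yars, Gars and Lars2, of which Eprs had a log2 fold change of -0.52 (unadjusted p = 0.00468, adjusted p = 0.393 in edgeR's test). Without the correction the Eprs value was -0.21. For Mars2 the value went from 0.38 to 0.06.

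In the 4 libraries of replicates 1 and 2, 12 of the 36 members passed edgeR's quasi-likelihood test at an adjusted p of 0.05. The lower genes were 10, against a background of 12.9% of 20633 tested genes, and the higher genes were 2, against 14.2%. Levels were lower for cytosolic Aars, Farsa, Gars, Hars, Kars, Sars, Vars and Yars and for mitochondrial Sars2 and Vars2, and higher for Mars2 and Wars2. Among them, Sars had a log2 fold change of -0.5 (adjusted p = 0.0193), with -0.42 for Gars (adjusted p = 0.0183) and -0.41 for Kars (adjusted p = 0.0237). Mars2 stood at 0.7 (adjusted p = 0.0263). These p-values measure the spread of the 4 libraries only, since the replicate 3 libraries, set apart by their liver markers, were left out. Over all 6 libraries the smallest adjusted p of a member was 0.692 in the same test.

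Corrected for length and GC content in the same 4 libraries, 9 members passed, all cytosolic and all lower, against a background of 8.23% lower and 5.68% higher. Gars, Kars, Sars, Yars, Aars and Farsa passed with and without the correction. Eprs, Qars and Rars passed only with it, and Hars, Vars, Sars2, Vars2, Mars2 and Wars2 only without it. The correction moved Mars2 most, from a log2 fold change of 0.7 to 0.01 (adjusted p = 0.97), followed by Eprs, from -0.09 to -0.71 (adjusted p = 0.0109). Before it, Eprs had 347 and 360 CPM in the controls and 324 and 329 CPM in APAP+IBU. Its exon length, 18102 bases, was the longest of the 36, and how well the correction holds at that length was not tested. The cytosolic median in these libraries was -0.27 without and -0.32 with the correction. Without it 18 of the 20 cytosolic values were below 0, against 50.2% of all tested genes, and with it all 20 were, against 52.5%. At an unadjusted p under 0.05, 15 members had lower and 2 had higher levels without the correction (backgrounds 20% and 20.9%), and 17 and 0 with it (backgrounds 17.6% and 13.3%).

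The median deviation of the 20 cytosolic genes from their mean control level was -0.27, -0.17 and -0.04 on the log2 scale in APAP+IBU replicates 1, 2 and 3, and 0.07, 0.01 and -0.07 in the controls. For the 16 mitochondrial genes it was -0.09, 0 and -0.05 in APAP+IBU. Over all tested genes no library departed from 0 by more than 0.02. The 2 exposed libraries with the lowest cytosolic levels, APAP+IBU replicates 1 and 2, also had the lower summed erythroid markers of their group, 2510 and 4480 CPM. The controls had another order. Control replicate 1 had the highest cytosolic median and the lowest erythroid sum, 5900 CPM. Control replicates 2 and 3 had 13800 and 9370 CPM. The part of blood RNA was not tested.

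Of 18 partner genes (scaffolds, amidotransferase subunits, selenocysteine enzymes, editing factors and related enzymes), 12 had a log2 fold change below 0, with a median of -0.09. In edgeR's test 0 passed at the adjusted level (background 0%) and 0 at an unadjusted p under 0.05 (background 3% higher and 3.21% lower). Of the scaffold proteins of the complex, Aimp1 had a log2 fold change of -0.11, Aimp2 -0.21 and Eef1e1 -0.27, all with overlapping groups. Aimp2 had 56.8, 56.1 and 37.3 CPM in controls and 40.5, 40.9 and 48 CPM in APAP+IBU, where control replicate 3 was the lowest of all 6. Eef1e1 had 30.2, 27.8 and 31.5 CPM in controls and 21.6, 21.7 and 31.1 CPM in APAP+IBU, where replicate 3 lay among the controls.

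Mitochondria make glutaminyl-tRNA with an amidotransferase of the subunits Qrsl1, Gatb and Gatc. Qrsl1 was the 1 partner gene of 18 with separated groups, at 24.9, 24.8 and 25.6 CPM in controls and 23.3, 23.8 and 24.2 CPM in APAP+IBU, and its log2 fold change was -0.08 (SE 0.13). A count of 1 of 18 is close to the 5.92% of all tested genes separated in the lower direction. Gatb had a log2 fold change of -0.17 and Gatc of 0.02.

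The 4 partner genes with the smallest p were Sephs2, Sepsecs, Lrrc47 and Eef1e1. Sepsecs and Sephs2 both serve the synthesis of selenocysteinyl-tRNA and pointed in opposite directions. Sepsecs, the enzyme of the last step, had 25, 30.4 and 39.2 CPM in controls and 44.3, 44.4 and 35.5 CPM in APAP+IBU (log2 fold change 0.39, adjusted p = 0.692 in edgeR's test). Sephs2, which makes the selenium donor, had 58.8, 51.8 and 46.5 CPM in controls and 35.2, 39.9 and 48.6 CPM in APAP+IBU (log2 fold change -0.35, adjusted p = 0.692 in edgeR's test). In both genes the replicate 3 libraries lay between the rest. Lrrc47, a protein with leucine-rich repeats, had 152, 102 and 88.6 CPM in controls and 78.5, 96 and 101 CPM in APAP+IBU, with overlapping groups and a log2 fold change of -0.31.

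Of 35 genes for tRNA maturation, export and modification, 22 had a log2 fold change below 0, with a median of -0.06, and 0 had an adjusted p under 0.05. Before adjustment, 1 had a higher level at p under 0.05 (background 3% of tested genes) and 0 a lower one (background 3.21%), so 1 of 35 is close to the background. The gene was Trmt10a, a tRNA guanosine methyltransferase, with 34.9, 36.6 and 40.8 CPM in controls and 56.4, 59.5 and 41.1 CPM in APAP+IBU. The groups were separated by a margin of less than 1 CPM at the replicate 3 libraries, and the log2 fold change was 0.48 (SE 0.17, unadjusted p = 0.0198, adjusted p = 0.692 in edgeR's test). Rtcb, the tRNA ligase, had 274, 264 and 236 CPM in controls and 202, 203 and 232 CPM in APAP+IBU, and Elp3, a subunit of the Elongator complex, had 154, 155 and 152 CPM and 130, 127 and 141 CPM. Both had separated groups, with log2 fold changes of -0.28 and -0.21. Nsun2, a cytosine methyltransferase, was also separated in the lower direction (log2 fold change -0.21) and Elac1, a tRNA 3′ processing enzyme, in the higher (21.3, 21.3 and 22.2 CPM against 26.6, 26.9 and 23.4 CPM, log2 fold change 0.25), which made 3 lower and 2 higher of 35, close to the 5.92% and 4.78% of all tested genes.

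Of 34 genes of the amino acid response, 26 had a log2 fold change below 0, with a median of -0.1. In edgeR's test 0 of them had an unadjusted p under 0.05 (background 3% higher and 3.21% lower). Groups were separated for 1 of them (background 5.92% lower), the alanine transaminase gene Gpt2, at 56.4, 53.7 and 56.5 CPM in controls and 49.2, 49.2 and 52.8 CPM in APAP+IBU. Atf4 had 92.9, 92 and 89.9 CPM in controls and 79.1, 80.2 and 108 CPM in APAP+IBU, a log2 fold change of -0.04. The first 2 exposed libraries lay below the controls and the third above them.

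Some known ATF4 targets had this order of libraries, and other response genes, named below, did not. Asns, which makes asparagine, had 100, 88 and 113 CPM in controls and 55, 70.7 and 115 CPM in APAP+IBU. Trib3, a pseudokinase, had 7.5, 6.96 and 4.77 CPM in controls and 2.94, 3.41 and 7.05 CPM in APAP+IBU. Slc7a5, a transporter of large neutral amino acids, had 74.4, 65.7 and 64.6 CPM in controls and 45.9, 51 and 77.7 CPM in APAP+IBU. In all 3 genes APAP+IBU replicates 1 and 2 were the lowest of the 6 libraries and APAP+IBU replicate 3 lay among or above the controls. Their log2 fold changes over all libraries were -0.33, -0.52 and -0.23, with adjusted p of 0.71, 0.699 and 0.726 in edgeR's test.

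**Figure D5:**
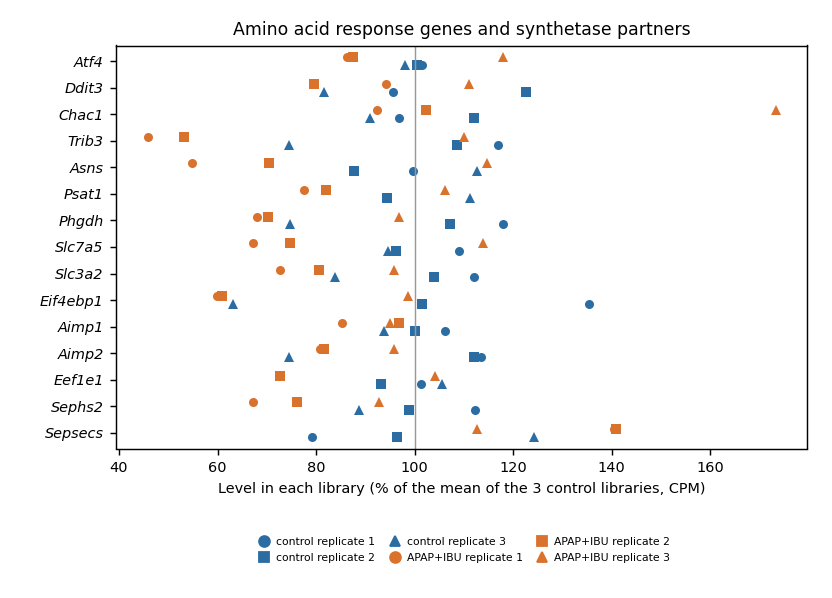
Level of 10 amino acid response genes and 5 synthetase partner genes in each of the 6 libraries, as a percentage of the mean of the 3 control libraries (CPM); blue symbols are controls, orange symbols APAP+IBU, and the shape gives the replicate. For Asns, Trib3 and Slc7a5 the orange circle and square lie left of all other symbols, while the orange triangle, APAP+IBU replicate 3, lies among or to the right of the blue symbols.

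Phgdh, the first enzyme of serine synthesis, had 98.2, 89.2 and 62.2 CPM in controls and 56.6, 58.5 and 80.5 CPM in APAP+IBU, with a log2 fold change of -0.35. Slc3a2, the heavy chain that pairs with Slc7a5, had 92.4, 85.8 and 69.2 CPM and 60, 66.5 and 79.1 CPM, with a log2 fold change of -0.27. In both genes APAP+IBU replicates 1 and 2 were the lowest libraries and control replicate 3 the next. Psat1, of the same pathway as Phgdh, had a log2 fold change of -0.17. Eif4ebp1, an inhibitor of cap-dependent translation, had 38.4, 28.8 and 17.9 CPM in controls and 17, 17.3 and 28 CPM in APAP+IBU, so its groups overlapped, with a log2 fold change of -0.45. Ddit3 (log2 fold change -0.07) and Chac1 (0.28) did not share this order, and Chac1 was at 0.369 to 0.703 CPM in all libraries. Among others, Slc38a2, Slc7a1, Slc7a11, Vldlr, Sesn2, Ddit4, Pck2, Cth, Nupr1 and Cebpg did not share it either. Slc38a2 had 229, 240 and 296 CPM in controls and 292, 269 and 246 CPM in APAP+IBU. On replicates 1 and 2 alone, 10 of the 34 response genes passed edgeR's adjusted test, all 10 lower, against the background of 12.9%, and 3 of 34 did with the length and GC correction, where 13.9% of all tested genes passed in either direction. In either direction, 4 and 3 of 18 partner genes and 8 and 2 of 35 maturation genes passed without and with the correction, against 27.2% and 13.9% of all tested genes, so the maturation shares lay below the background in both fits.

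Set against the promoter windows, the median log2 fold change was -0.23 for the 5 cytosolic genes with a match, and -0.18 for the 8 without one. Gars (-0.32), Yars (-0.27) and Aars (-0.23) were among the lower cytosolic genes, whereas Iars and Tars, both at -0.05, were among those nearest to 0. The 9 response genes with a match had a median of -0.14 and the 21 without one -0.09.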

How the data were processed

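RNA of 3 control and 3 APAP+IBU pools of 13.5 dpc ovaries was measured. The authors made stranded polyadenylated libraries, mapped reads to mm10 (TopHat2 2.0.14 and Bowtie2 2.1.0 per the submitters' processing notes), counted them per gene with HTSeq 0.6.1 and deposited raw counts. The strand setting of HTSeq is not given in the sources used here. Groups and replicate numbers came from the labels. The authors used DESeq2.

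Counts were tested with edgeR 4.0.16 in R 4.3.3 (quasi-likelihood test, TMM normalisation, its expression filter, Benjamini-Hochberg adjustment over all tested genes). CPM used TMM. RPKM divided CPM by exon length from GENCODE M21 on GRCm38, the assembly of mm10. Fits in DESeq2 1.42.0, other scalings and filters, a replicate block, a length and GC correction (loess, span 0.3), replicates 1 and 2 only and leaving out each library were alternatives. Total counts were 37811968 to 48954631. Libraries of one group differed by a chi-square per degree of freedom of 18.8 or more, so none was a duplicate. P-values measure the spread between these pools. On simulated counts of all 6 libraries with 200 genes changed by a fold of 2, edgeR recovered 94% of the 200 and 5.53% of its calls were unchanged genes (19909 genes). The simulated spread of each gene was held at or below the lower quartile of the estimates from the real counts. No differences in tissue content or base composition between libraries were simulated. The recovery therefore does not give the power for the real libraries or for changes smaller than a fold of 2.

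The members and the lists were chosen with earlier results of these data known. Values per library were given for the 6 cytosolic and 4 mitochondrial members with the smallest p, members whose groups did not overlap, the 2 highest and 2 lowest levels per length of each compartment and the 4 smallest p of each other list. Other partner and response genes were given by their values per library or their log2 fold change. Farsa was added to the named genes after its values had been seen, as the partner subunit of Farsb, as were Aars, Sars2 and others that passed in part of the libraries. Some items are not reported here.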

Additional observations from a re-analysis of the deposited data

How the results depend on the processing

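Over all 6 libraries, 0 members had an adjusted p under 0.05 under every scaling, filter, tool and left-out library that was tried. With replicates 1 and 2 only the number was 12, with the length and GC correction as well it was 9, and with DESeq2 and its beta prior it was 11. For the partner genes the 3 settings gave 4, 3 and 5, for the maturation genes 8, 2 and 9, and for the response genes 10, 3 and 11, where 5607 of 20633, 2870 of 20633 and 5701 of 20392 genes passed in all. The number of members lower at an unadjusted p under 0.05, which was 2, was 1 with total counts only and with DESeq2 without shrinkage or with the beta prior, 0 with all genes of at least 1 count, 5 with the length and GC correction, and 15, 17 and 15 in the 3 settings on replicates 1 and 2. The number higher, which was 0, was 2 on replicates 1 and 2 in edgeR and in DESeq2. In the 3 settings on replicates 1 and 2, 8451 of 20633, 6365 of 20633 and 7561 of 20392 tested genes passed this limit in either direction. Leaving out 1 library gave 0 to 9 lower and 0 to 2 higher members. Over the whole table, 580 of 20688 (without APAP+IBU replicate 2) to 6294 of 20634 genes (without control replicate 3) then passed in either direction. The cytosolic median ranged from -0.25 to -0.11 over the left-out libraries and was -0.32 on replicates 1 and 2 with the length and GC correction. All 20 cytosolic values were below 0 under each setting except without control replicate 1 (18, with Farsa and Vars above), without control replicate 3 (17, with Dars, Iars and Nars above) and with replicates 1 and 2 only in edgeR and DESeq2 (18 each, with Dars and Iars above). The Iars2 log2 fold change ranged from -0.09 to 0.02 over the left-out libraries, with 0.02 without control replicate 3, and on replicates 1 and 2 to 0.06 in edgeR and 0.05 in DESeq2. For other changes the cause was not tested.

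With the replicate number as a block, 0 members had an unadjusted p under 0.05, instead of 2, and 0 an adjusted p under 0.05. Of all 20167 tested genes, 681 and 2 did. With the block and the length and GC correction together, 3 members were lower and 0 higher at an unadjusted p under 0.05. At an adjusted p under 0.05, 0 members passed. Of all tested genes 1305 and 34 passed these limits. Deviations of same-numbered libraries correlated at -0.07, -0.02 and -0.04 across genes, and at -0.58, 0.33 and -0.46 across the members. The paper describes independent experiments with dams of each condition, so same-numbered pools may share an experiment. With 3 libraries per group these correlations cannot decide whether they do. The block was therefore used only as an alternative. Each member had at least 320 counts in every library.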
